A study of Mus musculus with 21 samples.

Results

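The nuclear-encoded subunits of the mitochondrial respiratory chain were followed in polymorphonuclear neutrophils (PMNs) and renal tubular epithelial cells (TECs) of mice after renal ischemia-reperfusion injury (IRI), with and without remote ischemic preconditioning (RIPC). Members were all protein-coding genes whose symbol begins with Ndufa, Ndufab, Ndufb, Ndufc, Ndufs or Ndufv and a number, is Sdha, Sdhb, Sdhc or Sdhd, begins with Uqcr or Atp5, or begins with Cox and a number from 4 to 8. Symbols ending in -ps were left out. The rule found 86 gene models with 85 different symbols, among 54123 genes of which 21808 were protein-coding. By complex they were 36 genes of complex I, 4 of complex II, 8 of complex III, 20 of complex IV and 18 of complex V. Ndufa4 and Ndufa4l2 were counted with complex IV, to which Ndufa4 belongs. Atp5s, a coupling factor, and Cox7a2l, a factor of respiratory supercomplexes, match the symbols although they are not core parts of an enzyme.

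Poly(A) RNA was sequenced from sorted cells in 21 libraries of 8 groups. All animals were wild-type mice, described in the study's methods as adult male C57BL/6, and cells were taken 24 h after surgery. Both renal pedicles were clamped and released in the IRI groups, and the sham groups had the same surgery without clamps. RIPC animals had a cuff inflated repeatedly around a hind limb before surgery, and in control animals the cuff was inflated to a low pressure that did not make the limb ischemic. PMNs Sham Control, PMNs IRI Control and TECs IRI Control had 2 libraries each, and PMNs Sham RIPC, PMNs IRI RIPC, TECs Sham Control, TECs Sham RIPC and TECs IRI RIPC had 3 each. The labels give blood as the source of the PMNs and kidney as the source of the TECs. The study describes the libraries of a group as biological replicates. The sources do not say which libraries came from the same animal or whether animals were pooled, and p-values measure the spread between these libraries.

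The respiratory chain lies in the inner mitochondrial membrane. Complex I (NADH dehydrogenase, the Nduf genes) and complex II (succinate dehydrogenase, the Sdh genes) pass electrons to ubiquinone, complex III (the Uqcr genes) passes them to cytochrome c, and complex IV (cytochrome c oxidase, the Cox genes) passes them to oxygen. Complex V (ATP synthase, the Atp5 genes) uses the proton gradient that complexes I, III and IV build. All of these complexes except complex II also hold subunits made from the mitochondrial genome. The proximal tubule of the kidney is rich in mitochondria and draws nearly all of its ATP from this pathway, whereas neutrophils have few mitochondria and rely mostly on glycolysis.

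Promoter sequences of RefSeq (GRCm38.p6) were at hand for 67 of the 85 symbols. Windows covering the 250 bases before the start of a gene were searched on both strands for the binding motifs of factors known to act on respiratory genes: GCGCA and GCGC around any base (NRF1), CCGGAAG (ETS factors such as GABP) and AAGGTCA (estrogen-related receptors). The NRF1 motif was found for 13 members (19.4%) beside 4.23% of 27025 genes, the ETS motif for 12 (17.9%) beside 7.83%, and the ERR motif for 5 (7.46%) beside 4.70%. At least 1 of the motifs stood before 24 members (35.8%) and before 15.6% of all genes. A match describes letters in this window and shows no bound factor. The sequences below belong to members that the comparisons turn on, and Cox6a1 is added as a highly expressed member with the NRF1 motif. They are written 5′ to 3′ on the gene's strand, in lower case, with motif letters in capitals. Each holds only the part of the 250 bases that lies outside annotated exons. Uqcr11 (chr10:80406831-80407071, minus strand) carried the ETS motif. Sdhd (chr9:50603850-50603909, minus strand) carried it on the opposite strand, so its letters read as the reverse complement. Cox6a1 (chr5:115348982-115349129, minus strand) carried the NRF1 motif at 2 places. Atp5b (chr10:128083057-128083272, plus strand) and Ndufv1 (chr19:4012807-4013005, minus strand) carried none of these letters in the printed stretch.
Uqcr11: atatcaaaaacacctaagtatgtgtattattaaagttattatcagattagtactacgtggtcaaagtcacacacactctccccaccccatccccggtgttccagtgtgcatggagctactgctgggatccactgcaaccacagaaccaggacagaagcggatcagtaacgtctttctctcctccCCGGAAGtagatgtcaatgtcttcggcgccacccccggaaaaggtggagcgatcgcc
Sdhd: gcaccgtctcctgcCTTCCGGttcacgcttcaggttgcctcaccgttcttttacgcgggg
Cox6a1: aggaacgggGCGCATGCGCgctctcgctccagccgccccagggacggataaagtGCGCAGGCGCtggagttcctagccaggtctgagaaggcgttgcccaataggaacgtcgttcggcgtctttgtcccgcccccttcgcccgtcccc
Atp5b: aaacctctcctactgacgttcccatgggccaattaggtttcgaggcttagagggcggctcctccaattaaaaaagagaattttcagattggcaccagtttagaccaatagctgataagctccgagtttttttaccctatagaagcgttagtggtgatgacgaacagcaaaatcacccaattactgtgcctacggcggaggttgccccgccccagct
Ndufv1: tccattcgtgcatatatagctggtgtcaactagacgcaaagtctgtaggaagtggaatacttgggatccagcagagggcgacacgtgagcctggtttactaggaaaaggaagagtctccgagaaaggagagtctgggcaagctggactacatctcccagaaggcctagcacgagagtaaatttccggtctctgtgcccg

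Libraries held 20881334 to 30507235 estimated reads in PMNs and 21479605 to 51624602 in TECs. TECs Sham Control 2 stood apart, with 11842 genes at 10 or more reads beside 16537 to 19609 in the other TEC libraries. PMNs Sham Control 1 stood apart among the PMN sham libraries, with 21356 such genes beside 13625 to 16900. Values below are normalized counts (CPM, scaled to library size by TMM over all 21 libraries) unless TPM is named. In TECs, 12 proximal tubule markers summed to 9622 to 21651 CPM after sham and 2786 to 9022 after IRI. The summed level of 12 neutrophil markers in TECs was at most 109 CPM, with Ly6g, Ltf and Camp at 0 in all TEC sham libraries. Neutrophil markers summed to 28566 CPM in PMNs Sham Control 1, 6218 to 11214 in the other PMN sham libraries and 13233 to 35469 in PMNs after IRI. Ngp and Ltf, granule genes of neutrophil precursors, were at 3027 and 657 CPM in PMNs Sham Control 1 and at most 141 and 32.6 in the other PMN sham libraries. In PMNs after IRI, Ngp stood at 705 to 2192 CPM and Ltf at 1.60 to 69.1. Against the blood label, all 12 proximal tubule markers also had reads in PMNs, and they summed to 1319 to 11457 CPM after sham and 575 to 1030 after IRI. Macrophage markers (8 genes) summed to 2876 to 9466 CPM in PMNs after sham, 832 to 1906 after IRI and at most 35.6 in TECs. Fewer cells of a type and less RNA per cell cannot be told apart in these bulk libraries.

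Of the 86 members, 76 had more than 3 reads in every library. The 10 others were Cox4i2, Cox6a2, Cox6b2, Cox7a1, Cox7b2, Cox8b, Cox8c, Ndufa4l2, Atp5s and a readthrough model of Atp5o. Levels per transcript length (TPM) in TECs after sham were highest for Cox4i1, the ubiquitous form of a subunit of complex IV, at 1419 ± 206 TPM (SD, n = 6). Atp5b, the catalytic beta subunit of ATP synthase, followed at 1239 ± 77, then Cox6a1 at 1125 ± 281, Atp5g1, a gene for the membrane ring subunit c, at 1020 ± 240 and Uqcr10, a small subunit of complex III, at 866 ± 196. The libraries of each neighboring pair in this order overlapped. In complex IV, Cox8a followed at 829 TPM, and in complex III Uqcr11 and Uqcrq followed Uqcr10 at 676 and 651. Complex I members were led by the accessory subunits Ndufb9 (573), Ndufa6 (548) and Ndufb8 (470). Complex II members stood lower, with Sdhc at 418, Sdhb at 415, Sdhd at 239 and Sdha at 145 TPM. Atp5o, a stalk subunit, followed in complex V at 550 TPM. Subunits of 1 complex thus spanned a wide range of transcript levels, down to 61.0 TPM for Ndufs1.

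All members together took 2.63 to 4.52% of TPM in TECs after sham (median 2.83%) and 1.70 to 2.20% after IRI (median 1.83%), so the groups did not overlap. In PMNs they took 1.05, 3.95, 2.56, 2.74 and 1.43% after sham (Control 1 and 2, then RIPC 1 to 3) and 0.640, 0.660, 0.623, 0.706 and 0.869% after IRI. PMNs Sham Control 2 was the highest PMN library and PMNs Sham Control 1 was the lowest of the sham libraries. The same libraries were the highest and the lowest of the PMN sham libraries in summed proximal tubule markers, and the part of kidney RNA in the members' level was not tested. The 13 subunits encoded by the mitochondrial genome took 17.3 to 27.2% of reads in TECs after sham, 11.8 to 22.4% in TECs after IRI, 2.15 to 12.1% in PMNs after sham and 1.24 to 2.69% in PMNs after IRI.

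**Figure D1:**
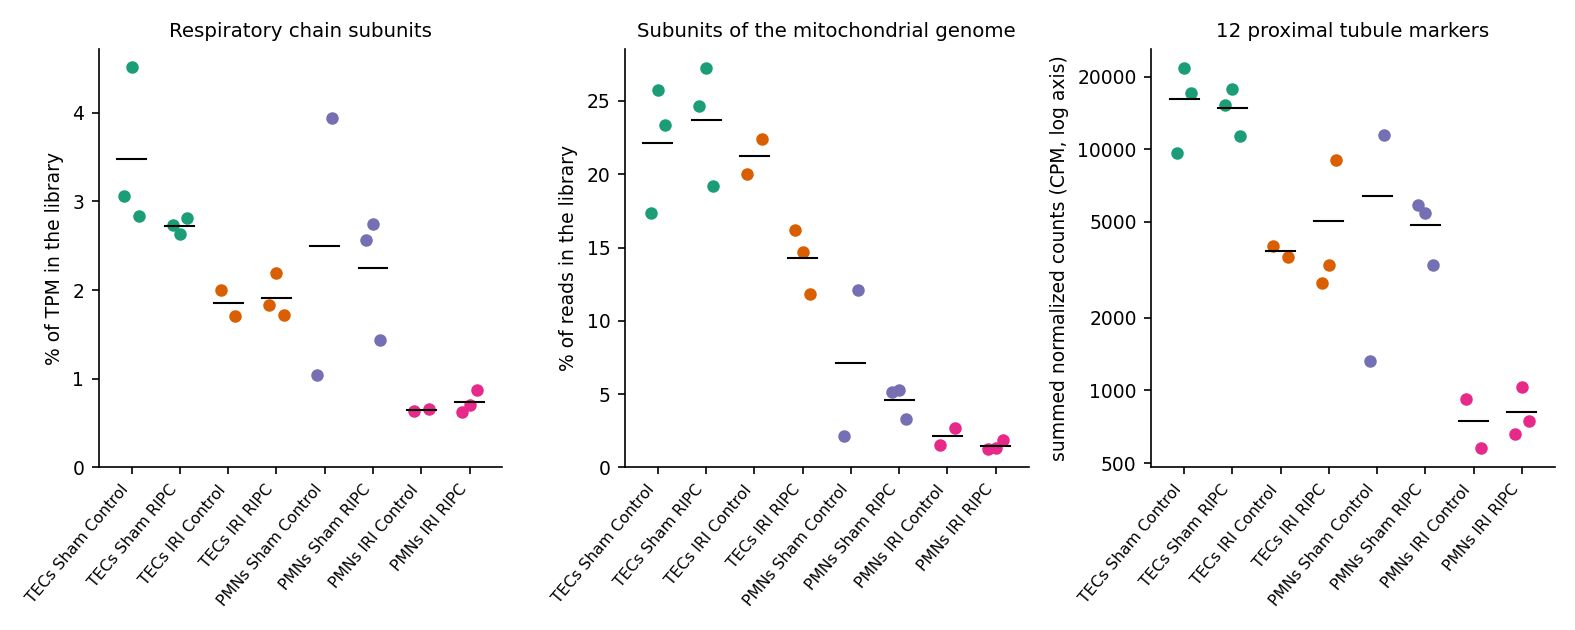
Each point is 1 library of the 8 groups; the panels give the members' share of TPM (%), the share of reads of the 13 subunits encoded by the mitochondrial genome (%) and the summed level of 12 proximal tubule markers (CPM, log axis). The members' share lay between 2.63 and 4.52% in TECs after sham and between 0.623 and 0.869% in PMNs after IRI, and PMNs Sham Control 2 was the highest PMN library in all panels.

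TECs after IRI were compared with TECs after sham, averaged over control and RIPC animals, to ask how respiratory genes stood in the injured tubule. Ndufs1 and Ndufs7, core iron-sulfur subunits of complex I, fell after IRI, and they were the members past the threshold among 79 tested (edgeR quasi-likelihood test, Benjamini-Hochberg adjusted p under 0.05 over 25917 genes). The threshold called 1.15% of all genes lower and 0.255% higher, and no member was called higher. At an unadjusted p under 0.05, 38 members were lower, beside 8.6% of all genes, and 1 was higher, beside 6.42%; this was Ndufa4l2, at 0 reads after sham. The fold change was below 0 for 77 members, beside 46.4% of all genes. For 35 members every IRI library lay below every sham library, beside 3.02% of all genes. The members' median log2 fold change was -0.74 beside 0.15 over all genes (-0.61 beside 0.28 with DESeq2 size factors).

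Ndufs1 (ENSMUSG00000025968.16, chr1:63143596-63176833) had sham values from 192 to 426 CPM with a median of 287. Its IRI values were 62.9 and 129 in control libraries and 75.9, 26.5 and 21 in RIPC libraries, all below the sham libraries. The log2 fold change was -2.26 (SE 0.456, adjusted p = 0.0273). Ndufs7 (ENSMUSG00000020153.14, chr10:80249121-80256794) ranged from 269 to 418 CPM after sham, with a median of 333. After IRI it stood at 168 and 133 in control libraries and 51.2, 96.5 and 95 in RIPC libraries, again without overlap. Its log2 fold change was -1.68 (SE 0.348, adjusted p = 0.0303). Adjusted p ranged from 0.0117 to 0.0778 for Ndufs1 and from 0.0228 to 0.160 for Ndufs7 over the fits that leave out 1 library.

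The members just outside the threshold, chosen here after their values were seen, came from several complexes. Uqcrc1, a core subunit of complex III, was at 1145 ± 139 CPM after sham (n = 6) and 464 ± 188 after IRI (n = 5), with adjusted p = 0.0515. Sdha, the flavoprotein of succinate dehydrogenase, was at 916 ± 233 and 323 ± 255, with adjusted p = 0.0562. Its IRI libraries held 192, 217, 159, 276 and 773 CPM, so TECs IRI RIPC 3 reached into the sham range of 662 to 1187. Ndufab1, the mitochondrial acyl carrier protein, was at 303 ± 44.9 and 118 ± 26.3, with adjusted p = 0.0536 and no overlap between the groups.

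By complex, the median log2 fold change was -0.78 for complex I, -1.13 for complex II, -0.74 for complex III, -0.38 for complex IV and -0.77 for complex V. Grouped by role after the values were seen, the 7 core subunits of complex I had a median of -1.35, and all 7 were at an unadjusted p under 0.05. The 27 tested accessory subunits had a median of -0.70, with 11 at that level. In complex III the large core proteins and the Rieske protein (3 genes) had a median of -1.20 and the 5 small subunits one of -0.67. In complex V the 5 genes of the catalytic F1 head had a median of -1.15, the 3 genes of subunit c one of -0.48 and the 8 other membrane and stalk genes one of -0.75. The 10 ubiquitous subunits of complex IV had a median of -0.38, with 1 of 10 at an unadjusted p under 0.05. Cox4i1, for example, was at 1130 ± 187 CPM after sham and 941 ± 156 after IRI, with overlapping libraries (log2 fold change -0.27, SE 0.255). Differences between role groups were not tested.

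**Figure D2:**
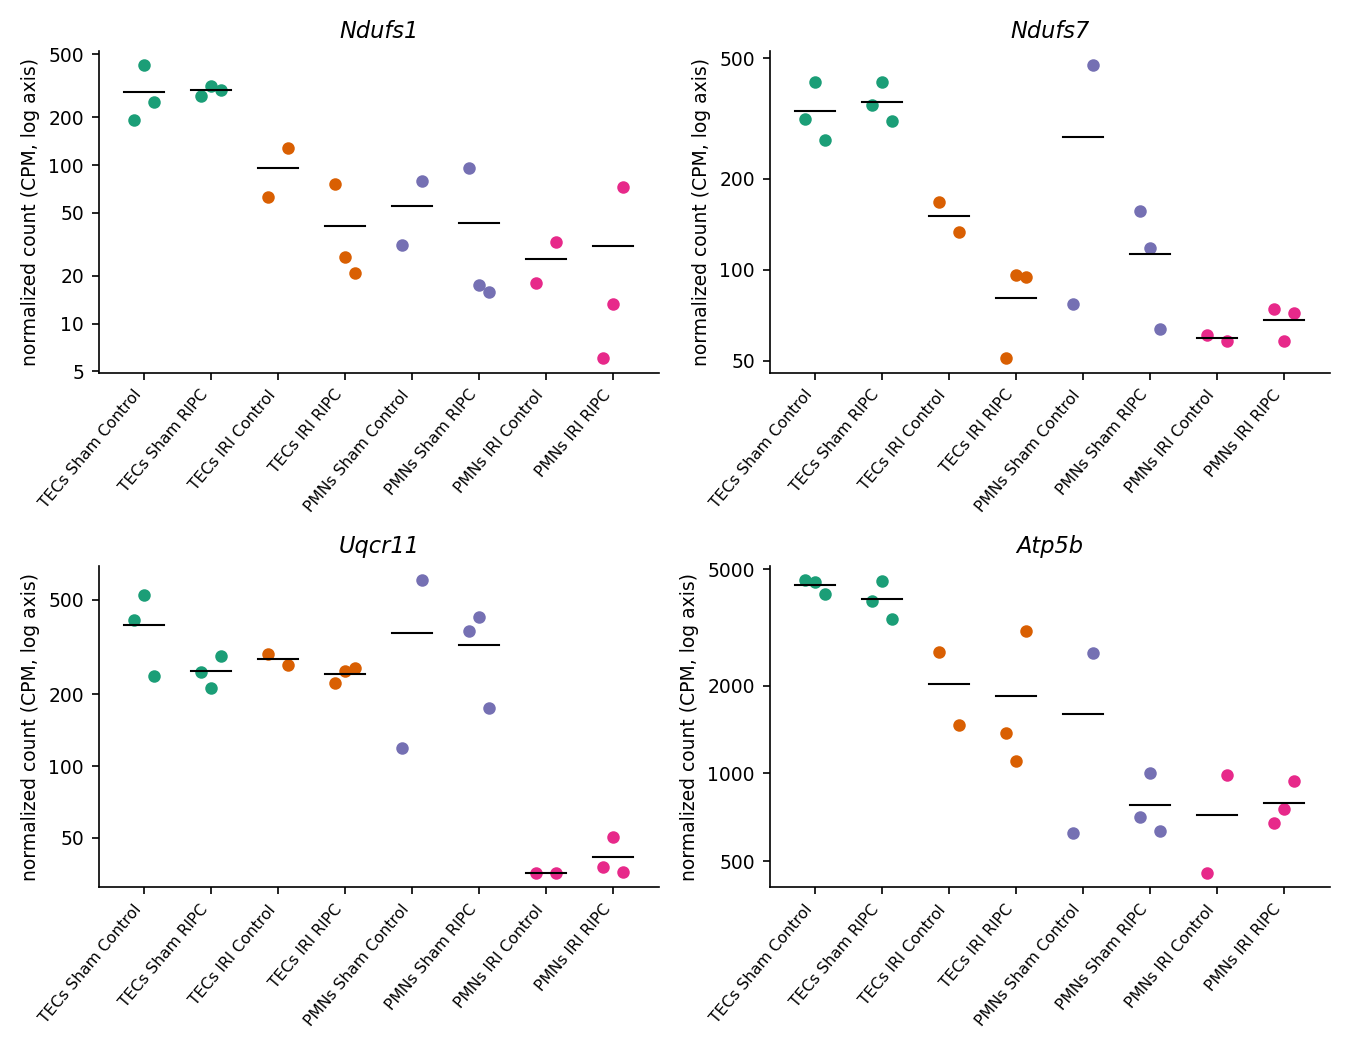
CPM in every library (log axis) for Ndufs1, Ndufs7, Uqcr11 and Atp5b, by group; black lines are group means. In TECs, Ndufs1 and Ndufs7 lie lower in all 5 IRI libraries than in the 6 sham libraries, whereas Uqcr11 overlaps in TECs and separates PMNs after IRI (35.7 to 50.7 CPM) from PMNs after sham (119 to 603 CPM).

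The number of members called in TECs depended on the libraries. No member was called without TECs Sham Control 2 or without any of the 3 TECs Sham RIPC libraries, 1 was called without TECs Sham Control 3, TECs IRI Control 2 or TECs IRI RIPC 1, and 19 were called without TECs IRI RIPC 3. The median stayed between -0.81 and -0.62 in these fits. Without TECs IRI RIPC 3, 618 of 25117 genes were called lower. DESeq2's Wald test called 20 members lower, beside 1472 of 25917 genes. Proximal tubule markers were also lower after IRI (2786 to 9022 CPM, beside 9622 to 21651), and tubular injury markers were higher (1134 to 1923 CPM, beside 0.748 to 145 with TECs Sham Control 1 highest). Their part in the members' values was not tested.

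The same comparison was made in PMNs. Uqcr11, a small subunit of complex III, fell after IRI and was the only member called of 77 tested (edgeR quasi-likelihood test over 25002 genes, of which 0.052% were called lower and 0.364% higher). At an unadjusted p under 0.05, 59 members were lower, beside 4.98% of all genes, and none was higher, beside 6.85%. Fold changes were below 0 for 75 members, beside 50.3% of all genes, and 25 members had every IRI library below every sham library, beside 2.04%. The members' median log2 fold change was -1.80 beside -0.01 over all genes.

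Uqcr11 (ENSMUSG00000020163.12, chr10:80402997-80406830) stood at 119 and 603 CPM in PMNs Sham Control libraries and 370, 421 and 176 in PMNs Sham RIPC libraries. After IRI it stood at 35.8 and 35.7 in control libraries and 37.6, 50.7 and 36 in RIPC libraries. The sham libraries thus spread over a far wider range than the IRI libraries, and the groups did not overlap. Its log2 fold change was -3.17 (SE 0.519, adjusted p = 0.0468). In TECs the same gene was at 321 ± 121 CPM after sham and 259 ± 26.2 after IRI, with overlapping libraries.

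Other members were not called in PMNs. Atp5g1 had 140, 886, 301, 510 and 290 CPM after sham and 64.8, 53.0, 65.5, 116 and 79.3 after IRI (log2 fold change -2.62, SE 0.519, adjusted p = 0.0990). Ndufa5, an accessory subunit of the hydrophilic arm of complex I, had 119 ± 78.8 CPM after sham and 12.8 ± 3.80 after IRI (log2 fold change -3.22, SE 0.668, adjusted p = 0.115). Ndufv1, the subunit of complex I that binds NADH, stood at 117 ± 38.8 and 122 ± 34.6 CPM, a log2 fold change of 0.04 (SE 0.387). Atp5s was the other member with a positive value, at 2.15 ± 4.82 and 5.39 ± 3.97 CPM.

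Median log2 fold changes in PMNs were -1.81 for complex I, -0.94 for complex II, -1.65 for complex III, -1.99 for complex IV and -1.59 for complex V. By role, all 10 ubiquitous subunits of complex IV were at an unadjusted p under 0.05 (median -1.99), as were 26 of 27 accessory subunits of complex I (median -1.92) and all 5 small subunits of complex III (median -1.95). The core and Rieske genes of complex III had a median of -0.75 with none of 3 at that level, the complex II genes -0.94 with 2 of 4, and the F1 genes -1.0 with 2 of 5. Over the 73 members tested here with more than 3 reads in every library, the log2 fold changes of TECs and of PMNs had a Pearson correlation of -0.47 and a Spearman correlation of -0.45. These comparisons share no library, and the points share transcript length and read depth.

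**Figure D3:**
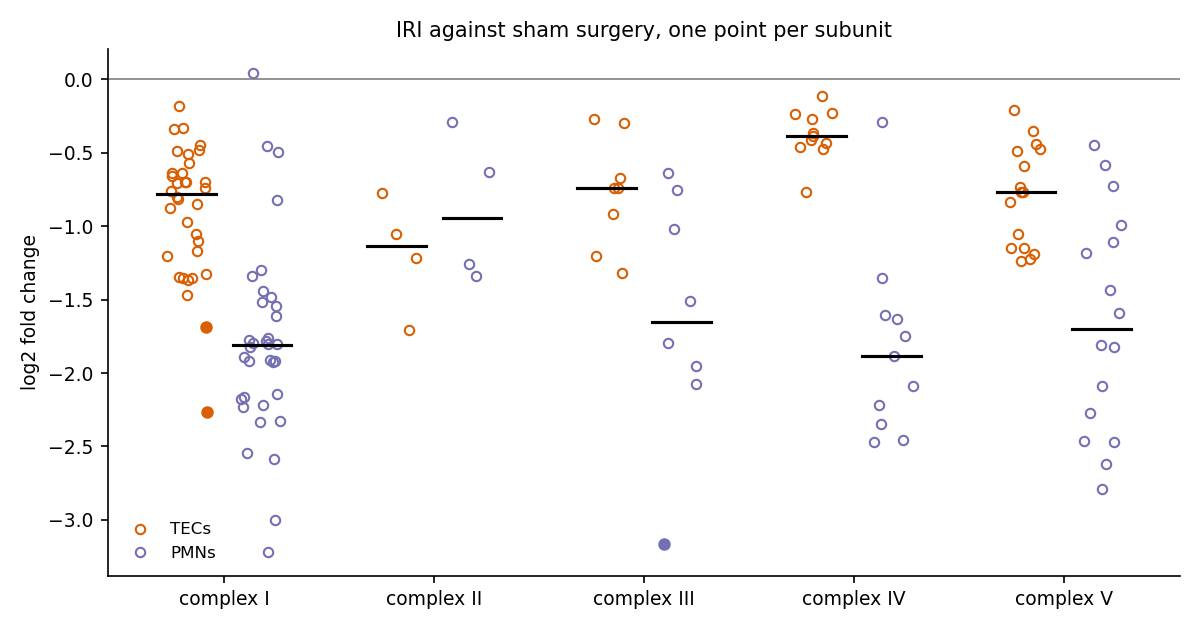
Log2 fold change after IRI against sham for each of the 73 members with more than 3 reads in every library, by complex; TECs are orange, PMNs purple, filled points have an adjusted p under 0.05 and lines are medians. All 73 points of TECs and 72 of the 73 of PMNs lie below 0, and complex IV has the smallest median in size in TECs.

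Calls in PMNs also depended on the libraries. Uqcr11 was called in the fit without PMNs Sham RIPC 3, where 16 of 24170 genes were called lower. The count also moved without PMNs Sham Control 1, a fit that leaves 1 library in its group (median -2.12). No member was called without any 1 of the 8 other PMN libraries (PMNs Sham Control 2, PMNs Sham RIPC 1 and 2 and every IRI library). Without PMNs Sham Control 2 the median was -0.94. With DESeq2's Wald test 37 members were called lower, beside 760 of 25002 genes. Summed markers moved with the members: proximal tubule markers were at 1319 to 11457 CPM after sham and 575 to 1030 after IRI, distal tubule markers (10 genes, all present) at 126 to 5258 and 51.4 to 617, and macrophage markers at 2876 to 9466 and 832 to 1906. The part of these cells in the members' values was not tested.

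Transcript length went along with the fold changes. Members were split at the median effective length of 401 bases. In TECs the 40 shorter members had a median log2 fold change of -0.48 and the 39 longer members one of -1.05 (Spearman correlation with length -0.53). Among all 9349 genes with a mean of at least 10 CPM, the 304 as short had a median of 0.29 and the longer ones of -0.15. In PMNs the order was the opposite: the 39 shorter members had a median of -1.95 and the 38 longer ones of -1.34 (Spearman correlation 0.65), beside -1.01 for 307 short genes and 0.13 for the longer genes. Long and short members also differ in role: the median effective length was 1015 bases for the core subunits of complex I, 872 for the F1 genes and 387 for the accessory subunits of complex I. With an offset for the effective length of each gene in each library, the members' medians were -0.74 in TECs and -1.80 in PMNs, as without it. The offset takes up only changes of a gene's own length between libraries. It cannot show whether length differences between genes bear on the fold changes. At an unadjusted p under 0.05 were 36 and 60 members with the offset and 39 and 59 without, and past the adjusted threshold 4 and 0 beside 2 and 1.

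**Figure D4:**
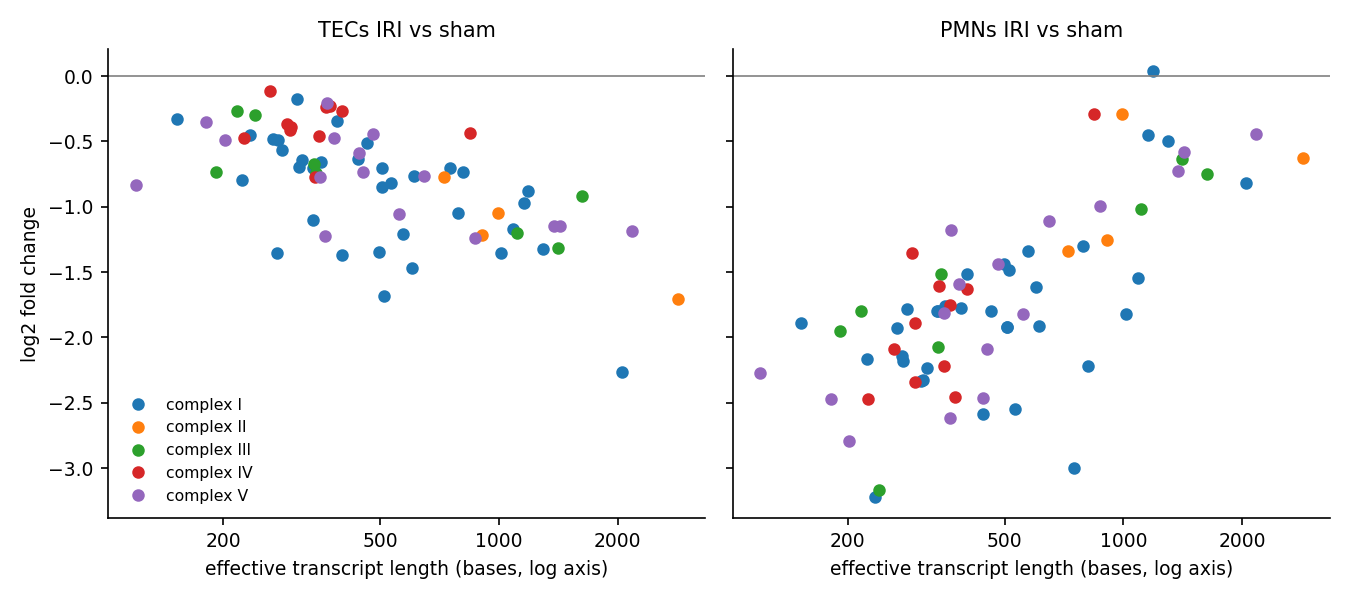
Log2 fold change after IRI against effective transcript length (bases) in TECs and in PMNs. Each point is 1 of the 73 members with more than 3 reads in every library, colored by complex. Over all 79 members tested in TECs, shorter ones were nearer to 0 than longer ones (medians -0.48 and -1.05). Over all 77 tested in PMNs, shorter ones were farther from 0 (medians -1.95 and -1.34).

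The difference between the IRI effects of PMNs and TECs was tested as an interaction over all 21 libraries. The edgeR quasi-likelihood test called 0 of 31769 genes, members included. At an unadjusted p under 0.05, 28 of 80 members had a more negative effect in PMNs, beside 4.42% of all genes, and 1 (Atp5s) had a more positive effect, beside 5.34%. The difference was below 0 for 61 members, beside 52.1% of all genes. Uqcr11 had the smallest p among members, with a difference of -2.89 on the log2 scale (SE 0.637, adjusted p = 0.124), and Ndufa5 was next at -2.79 (SE 0.753, adjusted p = 0.216). DESeq2's Wald test called 12 members lower and 2 higher, beside 983 and 1412 of 31769 genes. The members' median was -1.12 beside -0.16 over all genes, and it was -0.14 without PMNs Sham Control 2. Uqcr11 was called without PMNs Sham Control 1 (adjusted p = 0.0389). Complex medians were -1.15, 0.34, -1.02, -1.53 and -1.01 for complexes I to V.

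PMNs were then compared with TECs under the same surgery, to set the members' levels in the 2 cell types side by side. These comparisons share libraries with those of IRI and sham. After sham, 6 of 80 tested members were lower in PMNs (edgeR quasi-likelihood test, adjusted p under 0.05), beside 1.13% of all genes, and none was higher, beside 1.49%. At an unadjusted p under 0.05, 26 members were lower, beside 9.31% of all genes, and Ndufa4l2 was higher, beside 8.23%. The libraries did not overlap for 18 members, all lower in PMNs, beside 3.75% of all genes. Fold changes were below 0 for 72 members, beside 48.4% of all genes, and the members' median log2 fold change was -0.67 beside 0.00 over all genes.

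Ndufv1 (ENSMUSG00000037916.14, chr19:4007384-4012806), whose product takes electrons from NADH, was at 102 and 171 CPM in PMNs Sham Control libraries and 121, 129 and 64.7 in PMNs Sham RIPC libraries. TECs after sham held 481 to 791 CPM with no overlap, a log2 fold change of -2.30 (SE 0.440, adjusted p = 0.00475). Atp5b (ENSMUSG00000025393.12, chr10:128083273-128090391) was at 623, 2579, 709, 1001 and 632 CPM in PMNs and at 3370 to 4592 in TECs, again without overlap (log2 fold change -1.90, SE 0.389, adjusted p = 0.00865). Atp5a1, the alpha subunit beside it in the F1 head, was at 463 ± 366 CPM in PMNs and 1991 ± 365 in TECs (log2 fold change -2.08, SE 0.46, adjusted p = 0.0134). Sdhd, a membrane anchor of complex II, was at 121 ± 78.3 and 477 ± 95.5 CPM (adjusted p = 0.0298), and Uqcrfs1, the Rieske iron-sulfur protein of complex III, at 253 ± 193 and 820 ± 135 (adjusted p = 0.0473). Cox6b2, a subunit form known mainly from testis, had 0 reads in all 5 PMN sham libraries and 9.02 to 31.7 CPM in TECs after sham (adjusted p = 0.0095). Against a floor of 3 summed reads in each of the PMN libraries it was 122-fold lower. Both files of a library count nearly the same fragments, so 3 summed reads stand for fewer than 3 fragments. The fold is therefore not a lower bound.

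PMNs Sham Control 1 and 2 moved this count and the median the most, and leaving out either leaves 1 library in the group. The median was -0.39 without PMNs Sham Control 1 and -1.53 without PMNs Sham Control 2. Shorter members had a median of -0.33 and longer ones of -1.27, beside 0.34 and -0.45 for all genes with a mean of at least 10 CPM. Proximal tubule markers summed to 1319 to 11457 CPM in these PMN libraries, and their part in the members' values was not tested.

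After IRI, the members lower in PMNs than in TECs numbered 31 of 80 (edgeR quasi-likelihood test, adjusted p under 0.05), beside 1.17% of all genes, and none was higher, beside 1.49%. Of these 31, 13 belonged to complex I, 1 to complex II, 3 to complex III, 8 to complex IV and 6 to complex V. At an unadjusted p under 0.05, 67 were lower, beside 7.78% of all genes, and none was higher, beside 6.67%. Fold changes were below 0 for 78 members, beside 51.6% of all genes. The libraries of the cell types did not overlap for 58 members, all lower in PMNs, beside 2.95%. The median log2 fold change of the members was -1.75 beside -0.07 over all genes.

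Ndufa4, a small subunit of complex IV, was at 52.8 and 40.2 CPM in PMNs IRI Control libraries and 46.7, 69.1 and 94.8 in PMNs IRI RIPC libraries. TECs after IRI held 468, 475, 391, 481 and 393 CPM, so every TEC library lay above every PMN library (log2 fold change -2.97, SE 0.527, adjusted p = 0.00295). Uqcr11 was at 35.7 to 50.7 CPM in PMNs and at 224 to 296 in TECs (log2 fold change -2.77, SE 0.492, adjusted p = 0.00297). Cox6c and Cox5a, ubiquitous subunits of complex IV, had log2 fold changes of -2.45 and -2.40 (adjusted p = 0.00685 and 0.00933). In complex I the accessory subunits Ndufa5, Ndufa12 and Ndufb4 led with -3.08, -2.75 and -2.85 (adjusted p = 0.00544, 0.00572 and 0.00705). In complex V these were Atp5j, a stalk subunit, Atp5g1 and Atp5mpl, a small membrane subunit, with -2.25, -2.14 and -2.48 (adjusted p = 0.0130, 0.0131 and 0.0183). Uqcr10 and Uqcrb of complex III had -1.89 and -2.0 (adjusted p = 0.0215 and 0.0218), and Sdhc, a membrane anchor, was the called member of complex II at -1.99 (adjusted p = 0.0373). Cox7a2l, the supercomplex factor, was at 136 ± 55.8 CPM in PMNs and 124 ± 34.1 in TECs, a log2 fold change of -0.01 (SE 0.475).

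**Figure D5:**
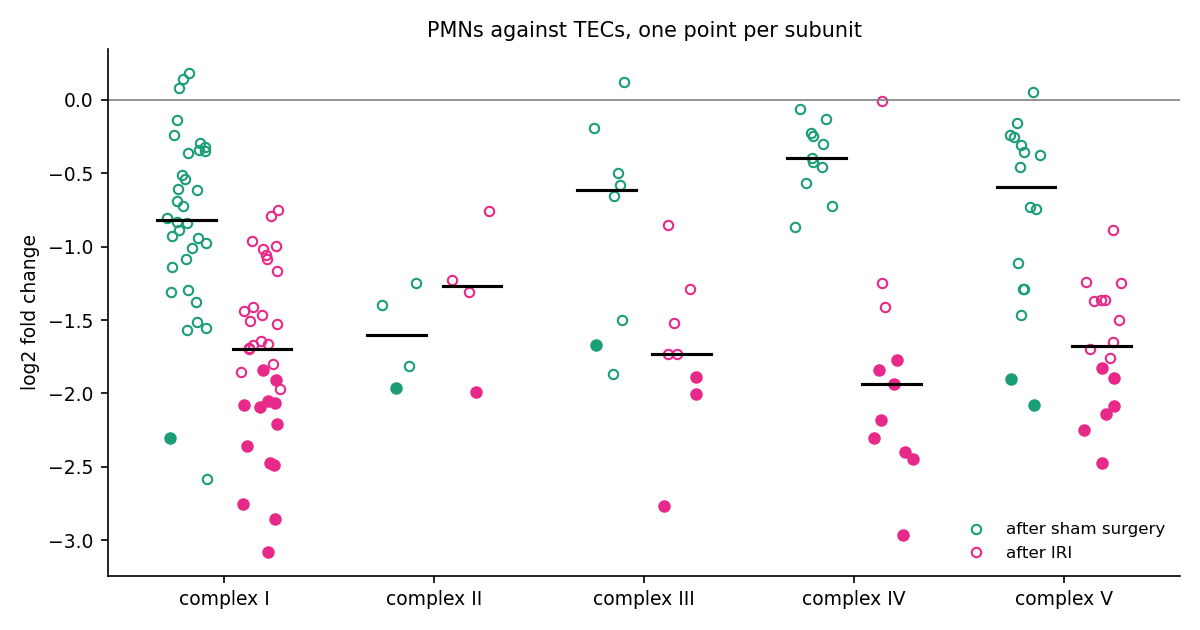
Log2 fold change of PMNs against TECs for each of the 73 members with more than 3 reads in every library, by complex, after sham (green) and after IRI (pink); filled points have an adjusted p under 0.05 and lines are medians. The medians over these members were -0.69 after sham and -1.73 after IRI.

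The count after IRI rested on several libraries: 19 members were called without PMNs IRI RIPC 1, beside 341 of 31355 genes called lower. It also rested on PMNs IRI Control 1 and 2 and TECs IRI Control 1 and 2. Leaving out any of these leaves 1 library in a group. The median lay between -1.91 and -1.54 in all of these fits. Shorter members had a median of -1.95 and longer ones of -1.51, beside -0.88 and -0.09 for all genes with a mean of at least 10 CPM. Proximal tubule markers were at most 1030 CPM in these PMN libraries.

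RIPC was compared with control within each cell type and surgery. No member was called in any of these 4 comparisons by edgeR's quasi-likelihood test, and none by DESeq2's Wald test. Among all genes the edgeR test called 0.00386% lower in TECs after IRI and 0.004% lower in PMNs after sham, and none otherwise. The Wald test called 425 genes in TECs after sham and 699 after IRI, of 25917 tested. In PMNs it called 813 genes after sham and 429 after IRI, of 25002 tested. In TECs after sham, fold changes were below 0 for 71 of 79 members, beside 41.7% of all genes (median -0.36, beside 0.21 over all genes), and 2 members were lower and none higher at an unadjusted p under 0.05, beside 1.2 and 3.34% of all genes. Without TECs Sham Control 2 the median was -0.14, with 57 members below 0 (0.07 over all genes), and without TECs Sham Control 3 it was -0.54. Ndufa3, an accessory subunit of complex I, was at 146, 190 and 90.1 CPM in control and 63.3, 56.8 and 58.9 in RIPC libraries (log2 fold change -1.29, SE 0.527, adjusted p = 0.708). Atp5mpl was at 273, 326 and 125 in control and 115, 103 and 138 in RIPC libraries, which overlapped (log2 fold change -1.06, SE 0.491, adjusted p = 0.708).

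In TECs after IRI, 65 of 79 members had a fold change below 0, beside 43.4% of all genes (median -0.18, beside 0.15 over all genes), with 1 higher at an unadjusted p under 0.05, beside 1.72% of all genes, and none lower, beside 2.63%. The median was -0.06 without TECs IRI RIPC 1, with 52 members below 0, and -0.29 without TECs IRI RIPC 3. Cox6a2, the heart and muscle form of a complex IV subunit, was the member with the smallest p, at 0 in both control libraries and 6.39, 0 and 3.65 CPM in RIPC libraries. Ndufs1 was at 62.9 and 129 CPM in control and 75.9, 26.5 and 21 in RIPC libraries, with overlap (log2 fold change -1.23, SE 0.620, adjusted p = 0.778).

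In PMNs after sham, 54 of 77 members had a fold change below 0, beside 48.3% of all genes (median -0.30, beside 0.00 over all genes), and 2 were lower at an unadjusted p under 0.05, beside 3.38%, with none higher, beside 1.22%. Both were low: Cox7b2 was at 1.87 and 5.70 CPM in control and 0 in RIPC libraries, and Atp5s at 10.8 and 0 in control and 0 in RIPC libraries. The median was -0.96 without PMNs Sham Control 1 and 1.22 without PMNs Sham Control 2, so its sign rested on the 2 control libraries, and it was -0.02 without PMNs Sham RIPC 3. In PMNs after IRI, 55 of 77 members had a fold change above 0, beside 49.4% of all genes (median 0.17, beside 0.00 over all genes), and 1 was lower at an unadjusted p under 0.05, beside 1.88%, with none higher, beside 0.84%. This median was 0.10 without PMNs IRI Control 1, 0.37 without PMNs IRI Control 2 and 0.32 without PMNs IRI RIPC 1. The member lower at an unadjusted p was again Cox7b2, at 1.37 and 1.88 CPM in control and 0 in RIPC libraries. Ndufb5, an accessory subunit of complex I, was at 21.4 and 6.15 CPM in control and 58.7, 30.3 and 60.2 in RIPC libraries (log2 fold change 1.81, SE 0.832, adjusted p = 0.920).

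Complex IV has alternative forms of several subunits, and in these libraries the ubiquitous form made up nearly all of each pair. Cox4i2, a form known from lung and hypoxic cells, had 0 reads in all TEC sham and all PMN libraries, beside 1419 TPM of Cox4i1 in TECs after sham. A count of 0 does not exclude a few transcripts in each library. Cox6a2 was 0.413% of the summed TPM of Cox6a1 and Cox6a2 in TECs after sham and 0.304% after IRI. Cox6b2 was 3.69 and 1.69% of its pair, and in PMNs it had reads only in PMNs IRI Control 1 (12.8 CPM). Cox7a1, the muscle form, was 3.76 and 3.15% of its pair with Cox7a2 in TECs, 3.32% in PMNs after sham and 1.35% in PMNs after IRI. Cox8b and Cox8c each had more than 3 reads in 1 of 21 libraries. Ndufa4l2, a hypoxia-induced relative of Ndufa4, had 0 reads in TECs after sham and in PMNs after IRI, 5.66 CPM in TECs IRI Control 1 and 3.21 in TECs IRI RIPC 2. In PMNs after sham, Sham Control 2, Sham RIPC 1 and Sham RIPC 2 held 32, 146 and 241 reads of it. Its share of the pair with Ndufa4 was 0.776% in PMNs after sham and 0.292% in TECs after IRI. The genes of ATP synthase subunit c, which differ only in the part cleaved on import, were led by Atp5g1. Atp5g2 was 12.2% of the TPM of Atp5g1 and Atp5g2 in TECs after sham and 26.1% in PMNs after IRI.

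The X-linked members Ndufa1, Ndufb11 and Cox7b were measured in a fit that kept sex-chromosome genes. Their log2 fold changes after IRI were -0.13, -0.75 and -0.65 in TECs and -1.82, -1.65 and -2.52 in PMNs, and none was called. Several members share much of their sequence with other genes, such as processed pseudogenes, and the reads could be split between them: 38.3% of the 50-base stretches of Atp5g2, 25.4% of Uqcrb, 22.1% of Cox7c and 21.7% of Ndufs5 also occurred in a transcript of another gene. The readthrough model of Atp5o shared 89.8% of its stretches and had more than 3 reads in 2 libraries. Whether counting used the strand is not given in the sources used here, so reads from overlapping antisense genes cannot be told apart from those of members.

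Genes that serve the chain without matching the symbols showed these values. Of 13 tested genes of the citric acid cycle, which feeds electrons to complexes I and II, 4 fell in TECs after IRI, beside 1.15% of all genes. All 13 were lower at an unadjusted p under 0.05, beside 8.6% of all genes (median log2 fold change -1.52). Suclg1, a subunit of succinyl-CoA ligase, went from 744 ± 179 CPM (n = 6) to 188 ± 56.6 (n = 5), Idh2, mitochondrial isocitrate dehydrogenase, from 689 ± 143 to 173 ± 69.3, and Ogdh, of the oxoglutarate dehydrogenase complex, from 413 ± 107 to 108 ± 91.5. In PMNs none of the 13 was called (median -0.57). Of 19 tested cytochromes c and carriers, 2 fell in TECs after IRI, beside 1.15% of all genes. They were Coq9, of ubiquinone synthesis (log2 fold change -2.47, SE 0.420), and Etfb, an electron transfer flavoprotein (-1.85, SE 0.322). Cycs, cytochrome c, was lower in PMNs than in TECs after IRI (61.0 ± 7.99 and 392 ± 112 CPM, adjusted p = 0.00217).

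Assembly factors of the chain (48 tested) had no call in either cell type after IRI, with medians of -0.69 in TECs and -1.02 in PMNs. Mitochondrial ribosomal proteins (78 tested) had 1 call in TECs, Mrpl12 at -1.58 (SE 0.325), a share near the 1.15% of all genes. They had none in PMNs, and medians of -0.69 and -1.09. Regulators of mitochondrial genes (15 tested) had no call, with medians of -0.41 and 0.10. The 13 subunits encoded by the mitochondrial genome, in the fit that kept mitochondrial genes, were all below 0 in both cell types with no call (medians -0.42 in TECs and -1.67 in PMNs), beside 0.993 and 0.0498% of all genes of that fit called lower. At an unadjusted p under 0.05, 6 were lower in TECs and 10 in PMNs. At that level in either direction were 4050 of 27177 genes of that fit in TECs and 3057 of 26084 in PMNs. Between cell types, 12 of these 13 were called lower in PMNs after sham (median -2.35) and all 13 after IRI (median -3.36), beside 1.34 and 1.06% of all genes. In TECs after IRI all 13 were below 0 in RIPC against control (median -0.72), 8 of them at an unadjusted p under 0.05, beside 2.64% of all genes, and none was past the adjusted threshold, beside 0.00368%.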

How the data were processed

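Transcript-level tables of 21 libraries were used, with 2 files per library. The authors trimmed the reads with Trim Galore 0.6.4 and quantified them with Salmon 1.0.0 on the mouse Gencode transcriptome (vM23 in the study's methods, mm10 in the labels), with corrections for sequence and GC bias. Each file holds estimated counts and TPM as deposited by the authors. Estimated counts were added over the transcripts of a gene and over both files and rounded. The files of a library differed by far less than independent sampling would give (0.0215 to 0.082 of its squared difference), so the sum counts nearly the same fragments again, and each file alone was an alternative. TPM is the mean of both files. No molecular identifiers were used. Intervals and floors cover counting error of the summed reads only and do not allow for fragments counted in both files.

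Transcripts were assigned to genes with Gencode M21 (GRCm38). Of 140748 transcripts 139864 matched, and the rest held 0.139 to 0.255% of reads. Gene sums were tested with edgeR 4.0.16 (quasi-likelihood F test, TMM, filterByExpr by group, 1 mean per group) in R 4.3.3, with Benjamini-Hochberg adjustment over all genes tested (limma 3.58.1 supplies the moderation, DESeq2 1.42.0 an alternative). Sex-chromosome and mitochondrial genes were left out, as in the study's methods. A simulation with known changes tested the fits. Promoters came from RefSeq. Members, gene lists and marker lists were chosen with earlier results of these data known, and role groups after the values were seen. Named were subunit forms, the 3 members of each complex with the highest TPM in TECs after sham, up to 3 called members per complex, direction and comparison with the smallest p (all where 5 or fewer were called), and up to 2 with the smallest p where none was called. Other normalization, no low-count filter, all chromosomes, a length offset, robust dispersions, a replicate block, DESeq2's Wald test and leaving out each library were tried. For comparisons of cell types and of RIPC, fits on the compared groups alone were added.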

Additional observations from a re-analysis of the deposited data

How the results depend on the processing

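Counts of members past the adjusted threshold moved more than their medians. For IRI against sham in TECs (2 lower), 1 member was called with DESeq2 size factors, 4 with a length offset, 13 without a filter on low counts, 13 with robust dispersions and 20 by DESeq2's Wald test. Genes called lower in these fits numbered 227, 271, 851, 364 and 1472, of 25917 tested (39528 without the filter). Leaving out each library gave 0 to 19 members. In PMNs (1 lower) none was called with DESeq2 size factors, a length offset or the replicate block (0), 23 without the filter and 37 by DESeq2's Wald test, with 0 to 25 when each library was left out and medians from -2.12 to -0.94. Among all genes in PMNs, 346 of 38823 were called lower without the filter and 760 of 25002 by DESeq2's Wald test. Within control libraries alone and within RIPC libraries alone, added after the data were seen, the edgeR test called 0 members in either cell type. Among all genes it called 1 and 25 of 25917 in TECs and 0 and 62 of 25002 in PMNs. At an unadjusted p under 0.05 in either direction were 21 and 23 members in TECs, beside 2226 and 2293 genes. In PMNs these were 46 and 40 members, beside 1113 and 2519 genes. For PMNs against TECs after sham (6 lower), DESeq2's Wald test called 26 lower and the fit without the filter 1 higher; leaving out each library gave 2 to 11 and medians from -1.53 to -0.39. After IRI (31 lower), DESeq2's Wald test called 60. Leaving out each library lowered the count and gave medians from -1.91 to -1.54. For the difference of IRI effects (0), DESeq2's Wald test called 2 higher and 12 lower and the fit without the filter 1 lower; leaving out each library gave 0 to 1 lower and medians from -1.37 to -0.14. Between cell types, DESeq2's Wald test called 2882 of 31769 genes lower in PMNs after sham and 1967 after IRI. For RIPC, leaving out each library gave medians from -0.54 to -0.14 in TECs after sham, -0.29 to -0.06 in TECs after IRI, 0.10 to 0.37 in PMNs after IRI and -0.96 to 1.22 in PMNs after sham. In the last of these, Atp5s, at a fitted log2 fold change of -9.96 with reads in 1 of 5 libraries, went to 0.0 without PMNs Sham Control 1 and to -10.9 without PMNs Sham Control 2. The cause of these changes was not tested.

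Within a cell type, same-numbered libraries of different groups correlated at -0.023 to 0.029 in PMNs and -0.091 to 0.131 in TECs after removal of group means. Libraries with different numbers correlated at -0.029 to 0.028 in PMNs and -0.111 to 0.068 in TECs. No correlation was computed between libraries of PMNs and TECs, so pairing by number across cell types was not tested. With the replicate block, members called lower numbered 3 for IRI in TECs, 0 for IRI in PMNs, 5 after sham and 28 after IRI between cell types. Genes called lower in these fits numbered 318 of 25917, 7 of 25002, and 336 and 354 of 31769. Of the alternative values for counts and medians, 475 stayed within a tolerance and 50 did not. The tolerance was 1.5 times a count, or 0.491 on the log2 scale for a median, the spread between libraries of a group. A log2 median near 0 could stay within it and still change by much of its own value. For named members, 534 kept their direction and side of the threshold, 94 lost and 3 gained their call, and 1 lost its direction (Atp5s, above). Fits on the compared groups alone do not apply to IRI against sham or to the difference, which already use every group of the fit.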

Other observations

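The 5 complexes had their highest share of TPM in the same library. In TECs Sham Control 2, the library with the fewest genes at 10 or more reads, complex I took 1.44%, complex II 0.165%, complex III 0.610%, complex IV 1.17% and complex V 1.14% of TPM. In PMNs IRI RIPC 1, the library with the lowest summed share, the values were 0.196, 0.0215, 0.0962, 0.163 and 0.146%.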
